A study of Sus scrofa with 16 samples.

Results

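PRL and GH1, the genes of prolactin and growth hormone, were followed in the pituitary of pigs together with 4 genes of the cells that make these hormones: the receptors DRD2, GHRHR and ESR1 and the transcription factor POU1F1. The members were chosen by name, with earlier results of these data known. The study had already named PRL among its differing genes, so the tests of PRL below are not independent of that report. The study also measured PRL by qPCR in the same pigs, and by its account that analysis bore out the RNA-seq result. Of the 6 names looked for, 3 (PRL, GH1 and ESR1) stood as symbols in the authors' deposited comparison. The other 3 (POU1F1, DRD2 and GHRHR) were found in the count table by the Ensembl identifier that the reference table pairs with the symbol. The count table held 25880 genes, of which 13621 were expressed highly enough to be tested, all 6 members among them.

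Whole pituitaries of 16 Złotnicka White gilts, a native Polish breed, were sequenced. Feed conversion is the amount of feed eaten for a given gain in weight, so a pig with a high value uses its feed less efficiently, and 8 gilts had low (LFC) and 8 high feed conversion (HFC). All were labelled as 180 days old, were fed and housed alike at 1 test station, and were unrelated pigs from different farms, with 1 library per pig. No treatment was given, and the groups were formed by the feed conversion measured in the pigs themselves. By the study the test ended at a set body weight and not at a set age. The HFC gilts of this breed spent more days in test, gained less per day and had thicker fat at several points. These traits go with the group and cannot be told apart from it here.

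The anterior pituitary holds several kinds of hormone cell. Lactotrophs make prolactin, and dopamine from the hypothalamus holds them back through the D2 receptor, encoded by DRD2, while estrogen acts on them through the receptor encoded by ESR1. Somatotrophs make growth hormone and are driven by growth hormone-releasing hormone, whose receptor is encoded by GHRHR, and held back by somatostatin. POU1F1 (Pit-1) is the transcription factor that both lineages need, and it binds the promoters of the prolactin and growth hormone genes. Prolactin is best known for lactation and growth hormone for body growth and the use of fat.

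The libraries held from 6010629 to 11794256 counted reads, and the counts of the 6 members ran from 181 to 1010142 per pig. Expression is given as CPM, counts relative to the size of the library after TMM scaling in edgeR, and a positive log2 fold change means a higher level in the HFC pigs. No exon lengths were used here, so levels are compared between pigs and not between genes. In whole glands, fewer cells of a type and less RNA per cell cannot be told apart. Within each group the libraries differed by more than counting error, with a coefficient of variation of 0.249 between pigs. LFC replicates 1, 5 and 7 and HFC replicate 6 stood apart by their markers of posterior lobe glia, and LFC replicates 4 and 6 and HFC replicate 5 at one end and HFC replicate 3 at the other end of the first principal component of all genes, which held 26.5% of the variance.

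PRL (ENSSSCG00000039721, chromosome 7, 17449586 to 17463970 on Sscrofa11.1) was higher in the HFC pigs. The level of PRL in the LFC pigs ran from 15477 CPM over a median of 26315 to 56619 CPM. In the HFC pigs it ran from 39833 CPM over a median of 66907 to 112328 CPM. All 8 HFC pigs lay above the LFC median and 5 lay above every LFC pig, while 7 of the 8 LFC pigs lay below every HFC pig. The groups overlapped only through LFC replicate 3, the highest of its group. LFC replicate 8, at 39653 CPM, lay just below the lowest HFC pig, at 39833 CPM. The means were 30059 ± 13356 CPM in the LFC pigs and 72419 ± 27449 CPM in the HFC pigs (SD, n = 8 each), a ratio of 2.41.

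The difference of the PRL means was 1.29 on the log2(CPM + 1) scale, with a 95% interval from 0.67 to 1.92 (exact two-sided permutation test over the 12870 splits into 8 and 8, p = 0.00109). Among the 13621 genes, 0.228% had an exact p as small as that of PRL or smaller. Across all genes the log2 fold change of PRL was 1.27 ± 0.28 (SE), with an unadjusted p of 0.000205 and, after Benjamini-Hochberg adjustment over all genes, 0.372 in the quasi-likelihood test of edgeR. PRL therefore did not pass the adjusted test, in which it stood at rank 6 by p. A gene was called where its adjusted p was 0.05 or less and its fold 1.3 or more. With this test of edgeR 0 of the 13621 genes were called (0.0%), while 1559 reached an unadjusted p of 0.05 (11.4%). Of the 6 members PRL alone had an exact p of 0.05 or less, beside 10.5% of all genes, 6.09% with a higher level in the HFC pigs. In edgeR, PRL and DRD2 reached an unadjusted p of 0.05 with a higher level in the HFC pigs, as did 7.03% of all genes, and 0 of the 6 did with a lower level, beside 4.41%. DESeq2 called 29 of 13446 genes (0.216%), PRL among them with an adjusted p of 0.00876, and it called none of the other 5 members.

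Markers of other cells of the gland were read beside PRL, and none was called in edgeR. Of 5 markers of corticotrophs and melanotrophs, the cells that make the precursor POMC, all 5 were lower in the HFC pigs and 3 reached an unadjusted p of 0.05 in edgeR, beside 4.41% of all genes. Their summed level was 15743 to 83939 CPM in the LFC pigs and 8701 to 26043 CPM in the HFC pigs, and none of them was at 0. Markers of the glia of the posterior lobe summed to 120 to 5852 CPM in the LFC pigs and 108 to 3175 CPM in the HFC pigs, above 1000 CPM in 3 LFC pigs and 1 HFC pig. None of the 3 tested glial markers reached an unadjusted p of 0.05 in edgeR, and of the 5 found MOG was at 0 in 1 pig and MAG in 3. Of the 4 gonadotroph and thyrotroph markers 3 lay below and 1 above 0 in log2 fold change. At an unadjusted p of 0.05 in edgeR 1 of 4 was lower in the HFC pigs, beside 4.41% of all genes. Their sums were 19792 to 61801 CPM in the LFC and 13403 to 44311 CPM in the HFC pigs. Higher in the HFC pigs at that threshold were 2 of 5 markers of endothelium and blood and 1 of 5 of fibroblasts, beside 7.03% of all genes, and 0 of 3 markers of stem cells and 0 of 5 of macrophages reached it. In the list of endothelium and blood the hemoglobin gene HBB went the other way, with a log2 fold change of -1.05 ± 0.51 (SE, unadjusted p of 0.0517 in edgeR). The exact two-sided permutation test gave HBB a p of 0.023, and 10.5% of all genes had 0.05 or less in that test. DESeq2 called POMC, with an adjusted p of 0.035, and the fibroblast marker COL1A2, with an adjusted p of 0.00876. The fibroblast list was mixed, with 3 genes above and 2 below 0 in log2 fold change and a median of 0.17. Without the 4 pigs rich in glial markers the difference of PRL was 1.03 (exact two-sided permutation test, p = 0.0126). Without 3 pigs at the low end of the first principal component of all genes it was 1.36 (exact two-sided permutation test, p = 0.00641), and without HFC replicate 3 of the high end as well it was 1.24 (exact two-sided permutation test, p = 0.013). The part of the marker genes in the level of PRL was not tested.

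**Figure D1:**
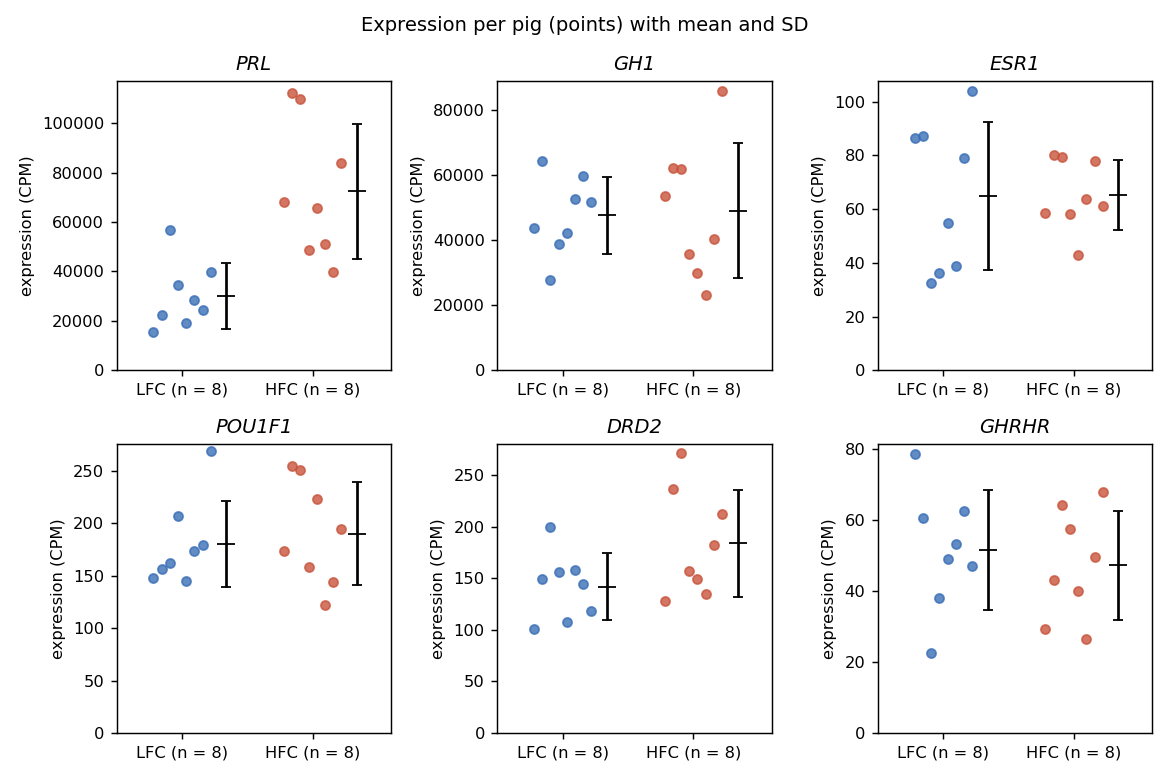
Expression in CPM (vertical axes, from 0) of the 6 genes in the 8 LFC and 8 HFC pigs, 1 point per pig, with the mean and SD as a bar at the right of each group. PRL is the gene whose groups are nearly apart, with 5 HFC pigs above every LFC pig, and for GH1, ESR1, POU1F1 and GHRHR the groups lie over each other.

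GH1 (ENSSSCG00000034212, chromosome 12, 15065024 to 15068818 on Sscrofa11.1) had no detectable difference. GH1 ran from 27790 CPM over a median of 47645 to 64232 CPM in the LFC pigs. The HFC pigs had from 23029 CPM over a median of 46915 to 85811 CPM. Both the lowest and the highest pig for GH1 were HFC pigs, and the LFC values lay wholly within the HFC range. The means were 47599 ± 11840 and 49053 ± 20694 CPM (SD, n = 8 each). The difference was -0.03 on the log2(CPM + 1) scale, with a 95% interval from -0.59 to 0.53 (exact two-sided permutation test, p = 0.908), so changes of either sign within that interval cannot be told from none. The log2 fold change of GH1 across all genes was 0.04 ± 0.24, and its p after Benjamini-Hochberg adjustment was 0.941 in the quasi-likelihood test of edgeR.

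PRL and GH1 had the most counts of all genes, rank 1 and rank 2 by counts summed over the 16 pigs, which also depend on the length of a gene. PRL took from 1.67% over a median of 2.62% to 5.41% of all counts in the LFC pigs, and from 4.39% over 6.55% to 10.6% in the HFC pigs. GH1 took from 2.66% over a median of 4.82% to 6.48% of all counts in the LFC pigs, and from 2.51% over 5.08% to 8.07% in the HFC pigs. Added up, both hormones took between 6.40% and 9.06% of the counts of an LFC pig and between 8.07% and 16.6% of those of an HFC pig.

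**Figure D2:**
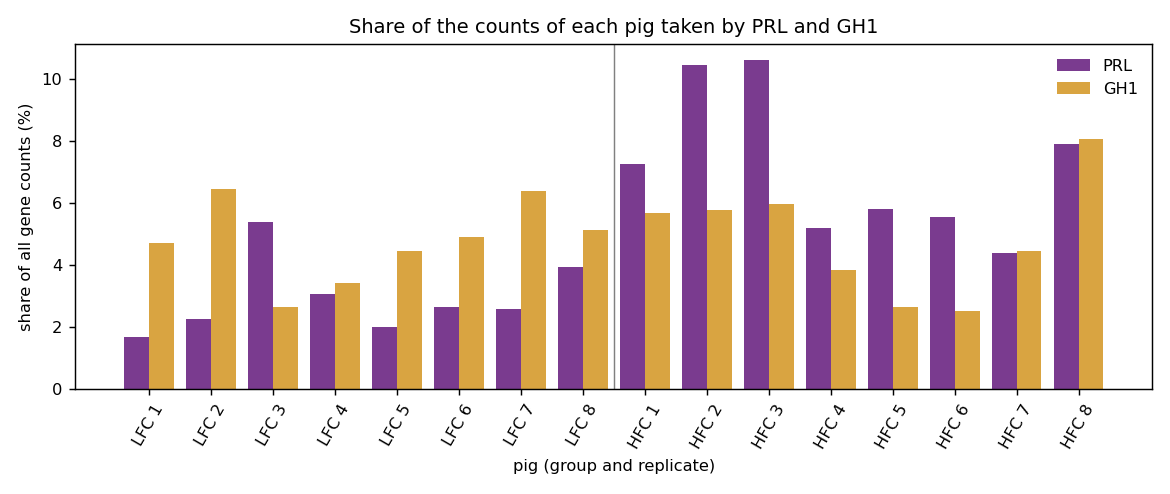
Share of all gene counts (vertical axis, percent, from 0) taken by PRL and GH1 in each of the 16 pigs, before any scaling, with the LFC pigs left of the line. The PRL bars run from 1.67% to 5.41% in the LFC pigs and from 4.39% to 10.6% in the HFC pigs, and those of GH1 from 2.66% to 6.48% and from 2.51% to 8.07%.

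The ratio of PRL to GH1 within a library does not depend on how libraries are scaled. It ran from 0.350 over a median of 0.495 to 2.04 in the LFC pigs and from 0.979 over a median of 1.57 to 2.22 in the HFC pigs. Again 7 of 8 LFC pigs lay below every HFC pig, and LFC replicate 3 was the exception. The log2 ratio was 1.32 higher in the HFC pigs, with a 95% interval from 0.57 to 2.04 (exact two-sided permutation test, p = 0.00389), so the 2 hormone genes differed unequally between the groups. Without the 4 pigs rich in glial markers the difference of this ratio was 0.89 and missed the threshold (exact two-sided permutation test, p = 0.0556).

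POU1F1 (ENSSSCG00000011996, chromosome 13, 168510671 to 168530394 in RefSeq on Sscrofa11.1), the lineage factor, had no detectable difference. The LFC pigs had from 145 CPM over a median of 168 to 269 CPM of POU1F1, and the HFC pigs from 122 CPM over a median of 184 to 255 CPM. The difference was 0.06 on the log2(CPM + 1) scale, with a 95% interval from -0.31 to 0.43 (exact two-sided permutation test, p = 0.717). Its log2 fold change was 0.08 ± 0.16 and its Benjamini-Hochberg adjusted p was 0.835 in the quasi-likelihood test of edgeR.

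PRL per unit of POU1F1 was higher in the HFC pigs. The ratio of PRL to POU1F1 ran from 104 over a median of 145 to 347 in the LFC pigs, and from 274 over a median of 402 to 439 in the HFC pigs. Only LFC replicate 3 reached into the HFC range, and the next LFC pig had a ratio of 166. The log2 ratio differed by 1.23, with a 95% interval from 0.78 to 1.63 (exact two-sided permutation test, p = 0.000622). For GH1 over POU1F1 the difference was -0.09, with a 95% interval from -0.61 to 0.42 (exact two-sided permutation test, p = 0.705).

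DRD2 (ENSSSCG00000015048, chromosome 9, 41068618 to 41135262 in RefSeq on Sscrofa11.1), the receptor through which dopamine restrains lactotrophs, was the member with the second largest difference, but it did not pass the tests. The LFC pigs had from 101 CPM over a median of 147 to 200 CPM of DRD2. The HFC pigs had from 127 CPM over a median of 170 to 272 CPM. Of the HFC pigs 6 of 8 lay above the LFC median and 3 above every LFC pig, so the groups overlapped widely. The means were 142 ± 32.3 and 184 ± 51.9 CPM (SD, n = 8 each).

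The difference of DRD2 was 0.36 on the log2(CPM + 1) scale, with a 95% interval from -0.03 to 0.75 (exact two-sided permutation test, p = 0.0692). With counts scaled by total library size alone it was 0.37 and passed the threshold (exact two-sided permutation test, p = 0.0362), and leaving out 1 pig at a time gave p-values of the exact permutation test from 0.0297 to 0.136, below 0.05 without LFC replicate 3, HFC replicate 1 or HFC replicate 6. The log2 fold change of DRD2 was 0.38 ± 0.17, with an unadjusted p of 0.0398 and 0.431 after Benjamini-Hochberg adjustment, both in the quasi-likelihood test of edgeR. PRL per unit of DRD2 was higher in the HFC pigs, with medians of 177 in the LFC and 398 in the HFC pigs and 6 of 8 HFC pigs above every LFC pig. That log2 ratio differed by 0.93, with a 95% interval from 0.48 to 1.38 (exact two-sided permutation test, p = 0.00155).

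ESR1 (ENSSSCG00000025777, chromosome 1, 14217036 to 14507715 on Sscrofa11.1), the estrogen receptor of lactotrophs and of other pituitary cells, had means of 64.9 ± 27.7 CPM in the LFC pigs and 65.2 ± 13.0 CPM in the HFC pigs (SD, n = 8 each). The LFC pigs ran from 32.5 CPM over a median of 67.1 to 104 CPM of ESR1, and the HFC pigs from 42.8 CPM over a median of 62.6 to 80.0 CPM. The HFC pigs lay within the range of the LFC pigs. The difference was 0.10 on the log2(CPM + 1) scale, with a 95% interval from -0.45 to 0.65 (exact two-sided permutation test, p = 0.685). Across all genes ESR1 had a log2 fold change of 0.01 ± 0.22 and its Benjamini-Hochberg adjusted p was 0.993 in the quasi-likelihood test of edgeR.

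GHRHR (ENSSSCG00000016673, chromosome 18, 42030505 to 42046178 in RefSeq on Sscrofa11.1), the receptor that drives somatotrophs, had from 22.5 CPM over a median of 51.0 to 78.6 CPM in the LFC pigs. In the HFC pigs GHRHR had from 26.5 CPM over a median of 46.3 to 67.7 CPM, within the LFC range. The difference was -0.11 on the log2(CPM + 1) scale, with a 95% interval from -0.66 to 0.44 (exact two-sided permutation test, p = 0.665). Across all genes GHRHR had -0.12 ± 0.22 in log2 fold change and a Benjamini-Hochberg adjusted p of 0.812 in the quasi-likelihood test of edgeR. Without the 4 pigs rich in glial markers the difference turned to 0.20 (exact two-sided permutation test, p = 0.486). GH1 per unit of GHRHR differed by 0.08 in log2 ratio, with a 95% interval from -0.40 to 0.57 (exact two-sided permutation test, p = 0.713).

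**Figure D3:**
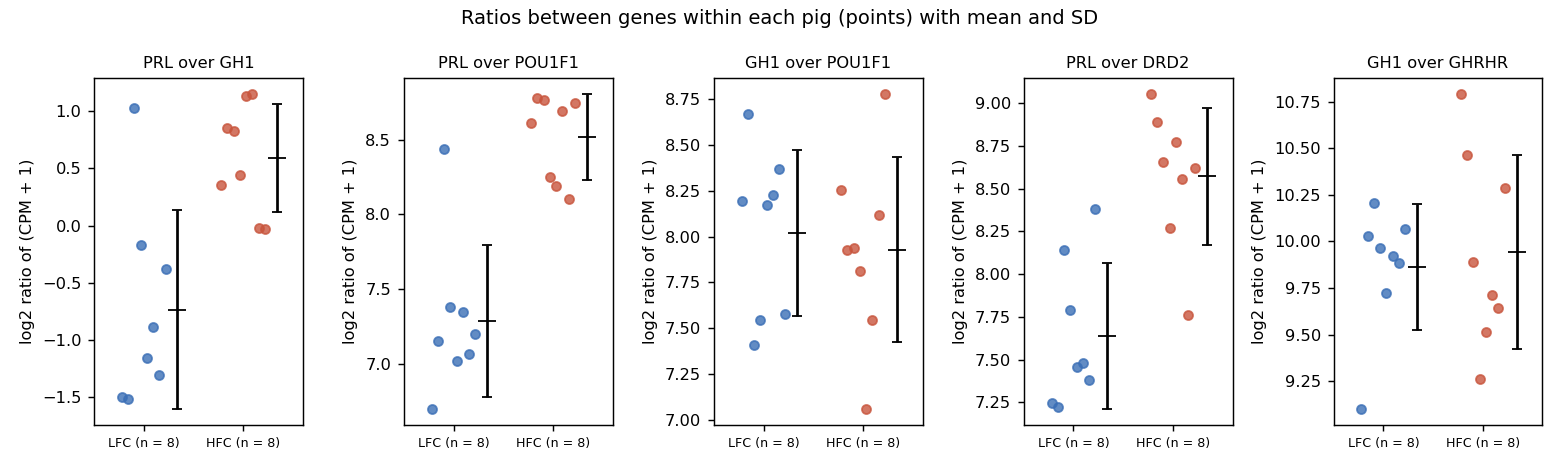
Log2 ratios of (CPM + 1) between genes within each pig (vertical axes, not from 0) for the 8 LFC and 8 HFC pigs, 1 point per pig, with the mean and SD as a bar. The 3 ratios with PRL on top are higher in the HFC pigs, by 1.32 over GH1, 1.23 over POU1F1 and 0.93 over DRD2, while for the 2 ratios with GH1 on top the groups overlap, with 1 and 3 HFC pigs above every LFC pig for GH1 over POU1F1 and GH1 over GHRHR.

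The members were next compared with each other across the 16 pigs, on the log2(CPM + 1) scale, over all 15 pairs of the 6 genes. The depth of the library and the glial markers differed between the pigs, and both genes of a pair were read in the same libraries. PRL and DRD2, a hormone and the receptor that restrains it, went together from pig to pig. Pearson's r of PRL and DRD2 was 0.756 (permutation test, p = 0.00095, adjusted over the 15 pairs 0.0142) and Spearman's rho was 0.641 (permutation test, p = 0.00929, adjusted 0.123). Within the LFC pigs r was 0.737 (exact permutation test, p = 0.0358) and within the HFC pigs 0.681 (exact permutation test, p = 0.0699). Leaving out the 2 pigs farthest from the median of PRL gave an r of 0.632 (permutation test, p = 0.0149). The value within the LFC pigs missed the threshold without any 1 of LFC replicates 1, 3, 4, 5 and 7, and was lowest without replicate 3, at 0.529 (exact permutation test, p = 0.214). Within the HFC pigs it lay between 0.540 and 0.856 with 1 pig left out, and passed without HFC replicate 1 or 7.

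GH1 and GHRHR, the somatotroph hormone and its driving receptor, had an r of 0.637 (permutation test, p = 0.00806, adjusted 0.0604) and a rho of 0.597 (permutation test, p = 0.0164, adjusted 0.123). This pair of GH1 and GHRHR missed the threshold after adjustment. Within the LFC pigs r was 0.773 (exact permutation test, p = 0.0287) and within the HFC pigs 0.590 (exact permutation test, p = 0.128). Without HFC replicates 6 and 8, the 2 pigs farthest from the median of GH1, r was 0.477 and missed the threshold (permutation test, p = 0.0852). Without the 4 pigs rich in glial markers, HFC replicate 6 among them, it was 0.619 (permutation test, p = 0.0315). LFC replicate 3, the lowest LFC pig for both genes, also carried it within its group, where r was 0.399 without that pig (exact permutation test, p = 0.375), and the LFC value also missed the threshold without LFC replicate 4 or 7. Within the HFC pigs r passed without HFC replicate 1, at 0.779 (exact permutation test, p = 0.0337).

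PRL and POU1F1 had an r of 0.526 over the 16 pigs (permutation test, p = 0.0382, adjusted 0.143) and a rho of 0.468 (permutation test, p = 0.0710, adjusted 0.213). Within the HFC pigs r of PRL and POU1F1 was 0.870 (exact permutation test, p = 0.00685), and it stayed between 0.825 and 0.921 with any 1 HFC pig left out. Within the LFC pigs r was 0.540 (exact permutation test, p = 0.171), and it was 0.913 without LFC replicate 3 (exact permutation test, p = 0.00238). That pig had the highest PRL of its group with a POU1F1 level of 162 CPM, below the LFC median.

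PRL and GH1 had no detectable correlation over the 16 pigs, with an r of 0.102 (permutation test, p = 0.708) and a rho of 0.118 (permutation test, p = 0.665). The sign of r for PRL and GH1 was opposite in the groups, at -0.502 in the LFC pigs (exact permutation test, p = 0.207) and 0.684 in the HFC pigs (exact permutation test, p = 0.0653), and neither passed. The LFC value was 0.0485 without LFC replicate 3.

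PRL and GHRHR, a hormone of one lineage and a receptor of the other, had an r of -0.315 over all pigs (permutation test, p = 0.237) but -0.877 within the LFC pigs (exact permutation test, p = 0.00389), where the pigs with more PRL had less GHRHR. Within the HFC pigs r of PRL and GHRHR was 0.277 (exact permutation test, p = 0.491). The LFC value stayed between -0.940 and -0.755 with any 1 LFC pig left out, the weakest without LFC replicate 3 (exact permutation test, p = 0.0506). Whether these correlations differ between the groups was not tested, and the p-values within groups are not adjusted.

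**Figure D4:**
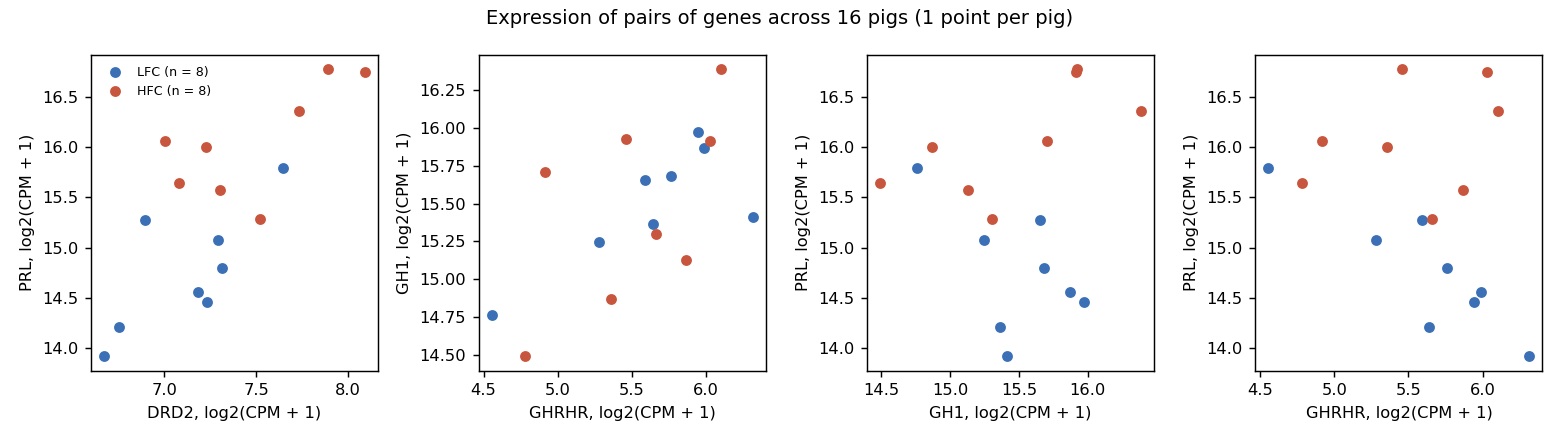
Levels of 4 pairs of genes on the log2(CPM + 1) scale (both axes), 1 point per pig, 8 LFC and 8 HFC pigs. PRL climbs with DRD2 in both groups (r = 0.756 over 16 pigs) and GH1 with GHRHR (r = 0.637), whereas PRL against GHRHR falls in the LFC pigs (r = -0.877) and not in the HFC pigs (r = 0.277).

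The genes around the members were read from 4 lists, and none of their genes was called by edgeR or by DESeq2. The first list holds transcription factors of the pituitary lineages. Of 22 genes 17 were found and 16 were tested, 11 above and 5 below 0 in log2 fold change, with a median of 0.06 beside -0.01 for all genes tested. In this list 0 of 16 reached an unadjusted p of 0.05 in edgeR, against 11.4% of all genes. FOXO1, a forkhead factor, had a log2 fold change of 0.32 ± 0.21 (SE) and THRB, a thyroid hormone receptor, 0.21 ± 0.16.

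The second list holds receptors and factors that act on prolactin. Of 24 genes 23 were found and 15 tested, and 2 of the 15 reached an unadjusted p of 0.05 with a higher level in the HFC pigs, beside 7.03% of all genes. These were EGFR, the receptor of epidermal growth factor, with a log2 fold change of 0.53 ± 0.21 (SE, unadjusted p = 0.0186 in edgeR), and DRD2. PRLR, the prolactin receptor, had 0.49 ± 0.26 (SE, unadjusted p = 0.0778 in edgeR). The other genes of the list lay between -0.21 and 0.38, and the median of all 15 was 0.06. Among the genes too low to test were DRD4 with at most 4 counts in a pig, OXTR with at most 3, and ESR2, the second estrogen receptor, with at most 18.

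The third list holds receptors and relays that act on growth hormone. Of 20 genes 18 were found and 17 tested, with 7 above and 10 below 0 and a median of -0.01. INSR, the insulin receptor, had 0.49 ± 0.17 (SE, unadjusted p = 0.00926 in edgeR) and IGF1R, the receptor of insulin-like growth factor 1, had 0.54 ± 0.25 (SE, unadjusted p = 0.0453 in edgeR), both higher in the HFC pigs, 2 of 17 beside 7.03% of all genes. No other gene of that list reached an unadjusted p of 0.05. The somatostatin receptors SSTR2, SSTR3 and SSTR5 had -0.38, -0.19 and 0.14.

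The fourth list holds G proteins and the cAMP relay that both receptors DRD2 and GHRHR work through, DRD2 by lowering and GHRHR by raising cAMP. All 29 genes were tested, 17 above and 12 below 0, with a median of 0.01. Of these 2 reached an unadjusted p of 0.05 with a higher level in the HFC pigs, beside 7.03% of all genes. GNAO1, a G protein subunit of the inhibitory class, had 0.43 ± 0.14 (SE, unadjusted p = 0.0051 in edgeR) and ADCY6, an adenylyl cyclase, 0.24 ± 0.11 (SE, unadjusted p = 0.0426 in edgeR). PRKACA, a catalytic subunit of protein kinase A, had 0.24 ± 0.12 (SE, unadjusted p = 0.0559 in edgeR). GNAS, the stimulatory subunit that GHRHR uses, had a log2 fold change of -0.01.

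**Figure D5:**
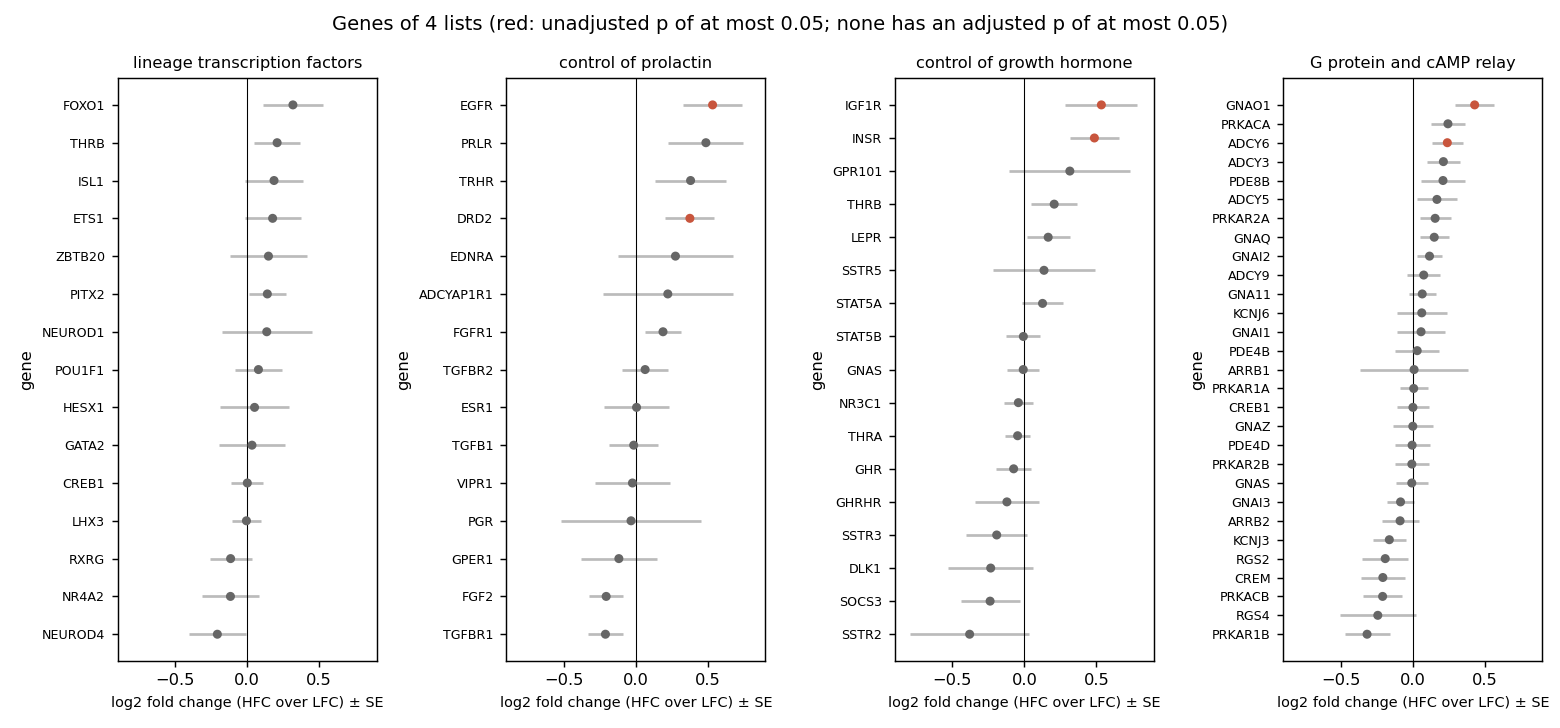
Log2 fold change of HFC over LFC with its SE (horizontal axes) for the tested genes of the 4 lists except 1 of the first, sorted within a list, with genes that reached an unadjusted p of 0.05 in red. The red genes are EGFR, DRD2, INSR, IGF1R, GNAO1 and ADCY6, all to the right of 0, beside 7.03% of all genes to the right and 4.41% to the left at that threshold, and no gene passed after adjustment.

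The genes whose pattern over the 16 pigs was most like that of PRL were sought after centring each gene on its group means, so that the difference between the groups played no part. Among 9688 named genes with a mean of at least 10 CPM, ETV1, an ETS family transcription factor, was the most like PRL (centred r = 0.887). FRZB, a secreted Wnt antagonist, followed with 0.863, then PRPF18 with 0.852, ANO5 with 0.829 and DERL1, a protein of the export of misfolded proteins from the endoplasmic reticulum, with 0.823. With counts scaled by total library size the value of DERL1 was 0.445, while those of the other 4 stayed between 0.660 and 0.836. The least alike were CYB5R3 at -0.806, ARRDC1 at -0.779 and NOL12 at -0.774. POU1F1 stood at rank 96 and DRD2 at rank 104 of this order, and GH1, ESR1 and GHRHR stood at ranks 3234, 7732 and 8408.

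ETV1, PRPF18, ANO5 and DERL1 had log2 fold changes of 0.13, -0.03, 0.01 and 0.11 between the groups. FRZB had 0.31 ± 0.14 (SE, unadjusted p = 0.0457 in edgeR). The log2 fold change of PRL was 1.27.

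For GH1 the most alike were THSD7B (centred r = 0.883), RPRD1B (0.873), ASCC3 (0.854), FBP1, an enzyme of gluconeogenesis (0.848), and TLCD4 (0.840). The least like GH1 were C1orf115 at -0.831, RAMP1, which shapes the ligand choice of calcitonin family receptors, at -0.830, and the mitochondrial COX2 at -0.826. GHRHR stood at rank 237, ESR1 at 1167, POU1F1 at 1324, DRD2 at 2249 and PRL at 3514. THSD7B, with means of 26.5 and 46.0 CPM, differed by 0.79 ± 0.20 in log2 fold change and had a Benjamini-Hochberg adjusted p of 0.372 in the quasi-likelihood test of edgeR. These likenesses are a description over 16 libraries that differed in depth and in glial markers, with no test.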

How the data were processed

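The authors deposited, per gene and pig, counts of reads that were not normalized, whole numbers on Ensembl genes of Sscrofa11.1. By the study's methods the libraries were not strand-specific, so reads from an antisense gene cannot be told apart. Reads were processed with FastQC and Flexbar and aligned and counted with STAR and RSEM, and the methods also name Bowtie 2 for the alignment. The study compared the groups with DESeq2, and the submitters' processing notes add CASAVA 1.8.2. The authors' comparison of the groups (means, fold changes and p-values for 10892 genes) served only for identifiers, symbols and positions. Of the gene names 9550 were deposited symbols, 5875 came from a reference table by Ensembl identifier and 449 by position, with an overlap of at least 50% of both spans. The feed conversion group stands in the labels under a tag named for shear force.

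In R 4.3.3, edgeR 4.0.16 was run on the counts with TMM scaling, its expression filter and quasi-likelihood F tests of HFC against LFC, with Benjamini-Hochberg adjustment over 13621 genes, on all 16 pigs. A gene was called where its adjusted p was 0.05 or less and its fold change 1.3 or more. The SE was taken from the F statistic. Exact two-sided permutation tests served for levels and ratios, with a pseudocount of 1 CPM, and the 95% intervals invert that test. For correlations 100000 resamples were drawn over 16 pigs, and all orders of the 8 pigs of a group were used. The edgeR test alone was run on simulated counts. There it called 72 of 100 genes changed 2-fold, 35 of 100 changed 1.5-fold and 3 unchanged genes. Each gene was drawn independently, without variation shared between genes across pigs, so these numbers do not give the power in the real libraries. Alternatives were DESeq2 1.42.0, limma 3.58.1 (voom), sva 3.50.0, other scalings, filters and pseudocounts, a replicate block and each pig left out. Leaving out pigs rich in glial markers or apart on component 1, and leaving out pigs within a group, were added after the data were seen. Python 3.11.15, numpy 2.4.6, pandas 2.3.3 and scipy 1.17.1 were used for the rest.

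The members and lists were chosen with earlier results of these data known. Named were all members, the 3 genes of smallest p in each list, and the 5 most and 3 least like PRL and GH1. SSTR2, SSTR3, SSTR5, GNAS, the markers HBB, POMC, COL1A2, MOG and MAG, and the low genes DRD4, OXTR and ESR2 were named after their values were seen. The result of 1 gene of the lists is not reported here. Markers of other cell types are given as sums of their lists, and not gene by gene as first planned. Levels per length and promoter motifs were not analysed here.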

Additional observations from a re-analysis of the deposited data

Results flagged for a closer look

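A pig was looked for that stood apart from the other 7 of its group, by Dixon's criterion on the log2 scale, in 42 groups of values, and 4 were found. About 1 in 20 groups is picked out by chance. The ratio of PRL to POU1F1 in LFC replicate 3 was 347, while the other LFC pigs had from 104 to 166. The ratio of GH1 to GHRHR in LFC replicate 1 was 549, against 845 to 1181 in the other LFC pigs. HFC replicate 5 was low in FOXO1, at 9.94 CPM against 16.1 to 24.5 CPM in the other HFC pigs. The same HFC pig was low in GNAO1, at 180 CPM against 251 to 325 CPM.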

How the results depend on the processing

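With DESeq2, 29 genes were called in place of 0, 1 of them a member (PRL, log2 fold change 1.27). The study reported many more genes for this breed, also with DESeq2 and the same thresholds. Leaving out each pig gave PRL log2 fold changes from 1.16 to 1.48, and its Benjamini-Hochberg adjusted p in edgeR lay between 0.0903 and 0.647. DESeq2 was the only setting that called PRL. In edgeR its adjusted p was 0.929 with 1 surrogate variable, 0.485 without a filter and 0.478 with the replicate block. With limma voom the adjusted p of PRL was 0.121.

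The replicate numbers did not pair the pigs, which were unrelated: deviations of pigs with the same number correlated from -0.30 to 0.35, and 0 of 8 correlated best with their own number. With the replicate block edgeR called 0 genes, GH1 turned to -0.031 in log2 fold change, and DRD2 passed (exact sign-flip permutation test, p = 0.0234).

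Some values changed sign, and FOXO1 and THRB did so though their main values were not near 0. With 1 surrogate variable GH1 had -0.23, ESR1 -0.30, FOXO1 -0.066 and THRB -0.046. In that setting EGFR had 0.15, PRLR 0.14, INSR 0.25, IGF1R 0.13, GNAO1 0.18, ADCY6 0.072 and PRKACA 0.056, all smaller than in the main fit. DRD2 had 0.35 and PRL 1.31 there. ESR1 had -0.0076 with upper-quartile scaling, -0.00072 with total library size and -0.11 without the 3 pigs apart. Without the 4 glia-rich pigs GHRHR had 0.20 in both tests, GH1 0.14, GH1 over POU1F1 0.10 and GH1 over GHRHR -0.060. PRL over GH1 kept its sign at 0.89 there but lost its call (exact permutation test, p = 0.0556). In the exact test without the 3 pigs apart, GH1 had 0.044 and ESR1 -0.034, and without HFC replicate 3 as well ESR1 had -0.071, POU1F1 -0.023 and GH1 over POU1F1 0.0064. Leaving out each pig gave -0.10 to 0.15 for GH1 and -0.078 to 0.15 for ESR1 in edgeR, and in the exact tests -0.16 to 0.11 for GH1, -0.019 to 0.22 for ESR1, -0.0036 to 0.15 for POU1F1, -0.21 to 0.032 for GH1 over POU1F1 and -0.038 to 0.18 for GH1 over GHRHR.

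Correlations moved as well. Without the 2 farthest pigs r was -0.0063 for PRL and GH1, 0.379 for PRL and POU1F1, 0.477 for GH1 and GHRHR and 0.0255 for ESR1 and DRD2. In the LFC pigs it was -0.502 for PRL and GH1 (from -0.667 to 0.0485 with each pig left out), 0.540 for PRL and POU1F1, -0.304 for GH1 and DRD2 and -0.182 for POU1F1 and GHRHR. In the HFC pigs it was 0.261 for PRL and ESR1, 0.681 for PRL and DRD2, 0.277 for PRL and GHRHR, 0.590 for GH1 and GHRHR, 0.652 for ESR1 and DRD2 and 0.740 for DRD2 and GHRHR. Without the glia-rich pigs it was 0.112 for PRL and ESR1, 0.510 for PRL and POU1F1, 0.0308 for ESR1 and DRD2 and 0.231 for DRD2 and GHRHR. PRL and POU1F1 had 0.448 with total library size and 0.538 without the pigs apart. The cause was not tested for any of these.

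Of the values recomputed, 914 kept their direction and their side of the threshold (or a count within 1.5 times), 53 changed sign, 21 fell short of the threshold they had passed, 16 newly passed it and 2 counts moved. With 8 pigs a group, the 95% interval of GH1 spans from -0.59 to 0.53 on the log2 scale, so smaller differences of this gene were not detectable.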
